A study of Hydra vulgaris with 30 samples.

Results

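In regenerating Hydra vulgaris tips, 25 of 51290 listed transcripts, of which 26801 had no count in any library, had higher group means under the inhibitor UNC0379 than in DMSO from the moment of decapitation (0 hours postamputation, hpa) through 12 hpa. They were chosen from measured values, by a rule on CPM, the count scaled to 1000000 assigned reads of its library. The log2 ratio of the UNC0379 mean over the DMSO mean, with 5 CPM added to each, had to be at least 0.5 at 0 hpa and to average at least 1 over 3, 8 and 12 hpa. The highest of the UNC0379 group means also had to reach 30 CPM, which 3412 transcripts did. The differences at 0, 3, 8 and 12 hpa therefore chose the members and are described here without a test. All 25 members met the 30 CPM limit within 0 to 12 hpa, so the 24 hpa libraries took no part in the choice, and they hold the only comparison tested.

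The series had 10 groups of 3 libraries: polyps treated with UNC0379, sampled at 5 times (0, 3, 8, 12 or 24 hpa), and polyps treated with 0.2% DMSO, the vehicle, sampled at the same times. All polyps belonged to strain Ind-Pune, grown clonally, and all were decapitated before the regenerating tips were taken, so the 0 hpa groups are freshly cut polyps and not intact ones. One field of the sample labels states a dose of 150 µM, and another gives that figure in mM. Polyps of the study's regeneration assays met the inhibitor before the cut and stayed in it afterwards, but the exposure before the cut is not given for these libraries, and time after the cut and time in the inhibitor cannot be told apart within the UNC0379 groups. Whether the 3 libraries of a group are separate cultures is not stated, and the p-values cover the spread among these libraries alone.

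UNC0379 inhibits SETD8 (KMT5A), the methyltransferase that places the single methyl group on lysine 20 of histone H4. A Hydra polyp that has lost its head closes the wound and rebuilds a head organizer at the tip, a process known to run through Wnt signalling. QuantSeq libraries count tags near the 3′ end of a polyadenylated transcript, whatever its length. No molecular identifiers are named. The limits given for counts of 0 cover counting error in the DMSO libraries only, and not the choice of the members. The members are known by transcript identifiers alone: 20 carry the prefix Sc4wPfr and 5 the prefix MSTRG. None of the identifiers was found in the gene table used here, and so no gene name, role or sequence is given, and the labelled tissue could not be checked against marker genes. Tips are a mixture of cells, and a higher level from more cells of a type and from more RNA per cell cannot be told apart.

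The libraries held 146798 to 811079 assigned reads each, and 1 count was worth 1.23 to 6.81 CPM. The shallowest library was UNC0379 24 hpa replicate 3. The 3 UNC0379 24 hpa libraries correlated with the rest of their group at 0.754 to 0.858 and UNC0379 0 hpa replicate 3 at 0.882, against 0.910 to 0.961 in the other 26 libraries. In DMSO 24 hpa replicate 3, 98.2% of the reads were not aligned, against at most 69.0% elsewhere. UNC0379 24 hpa replicate 3 was the lowest of its group in 15 of the 25 members and had 0 counts in 4, and DMSO 0 hpa replicate 2 was the lowest of its group in 17. For each assigned read a further 1.03 to 1.22 were ambiguous, and transcripts that overlap a neighbour have uncertain counts. Reads that aligned to several places made up 0.14% to 6.61% of a library, and transcripts that resemble another also have uncertain counts.

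By the median member, the measured ratio was highest at 8 hpa and lower at 24 hpa than at 0 hpa. Ratios at 0 to 12 hpa chose the members, and those at 24 hpa did not. A lower median at 24 hpa can come from that choice alone, so it cannot show whether the difference narrowed. The fitted log2 fold change at 24 hpa, given below, had a median of 0.97. The median of the members' log2 ratios was 0.88 at 0 hpa and 1.37 at 3 hpa. It reached 1.73 at 8 hpa, then 1.35 at 12 hpa and 0.75 at 24 hpa. For 16 of the 25 members the largest ratio of 0 to 12 hpa fell at 8 hpa, for 5 at 12 hpa, and for 2 each at 0 and 3 hpa. Under UNC0379 the mean was higher at 3 hpa than at 0 hpa in 24 members, and more than doubled in 12. In DMSO it was higher in 19 and more than doubled in 4. The UNC0379 mean peaked at 8 hpa in 17 members. In DMSO the peaks were spread over the course, with 2 members peaking at 0 hpa, 6 at 3 hpa, 4 at 8 hpa and, later, 8 at 12 hpa and 5 at 24 hpa. The rule favoured high UNC0379 means and low DMSO means at 3, 8 and 12 hpa, which shaped these rises and peaks. They were not counted over all tested transcripts.

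Separation of single libraries followed the same course. The lowest UNC0379 library was higher than the highest DMSO library in 16 members at 0 hpa, where 5.21% of the 5046 transcripts with enough counts to be tested did so. This held for 24 members at 3 hpa (14.6% of all tested), all 25 at 8 hpa (18.2%) and 22 at 12 hpa (12.8%). The rule used these 4 contrasts, and the counts describe how it was met. At 0 hpa the groups overlapped in the other 9 members, so that the higher start is a difference of group means in them and not of every library. In 15 members the groups were apart at each of the times from 0 to 12 hpa. At 24 hpa, which the rule did not use, 10 members were apart in this direction (5.63% of all tested) and 0 in the opposite one.

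**Figure D1:**
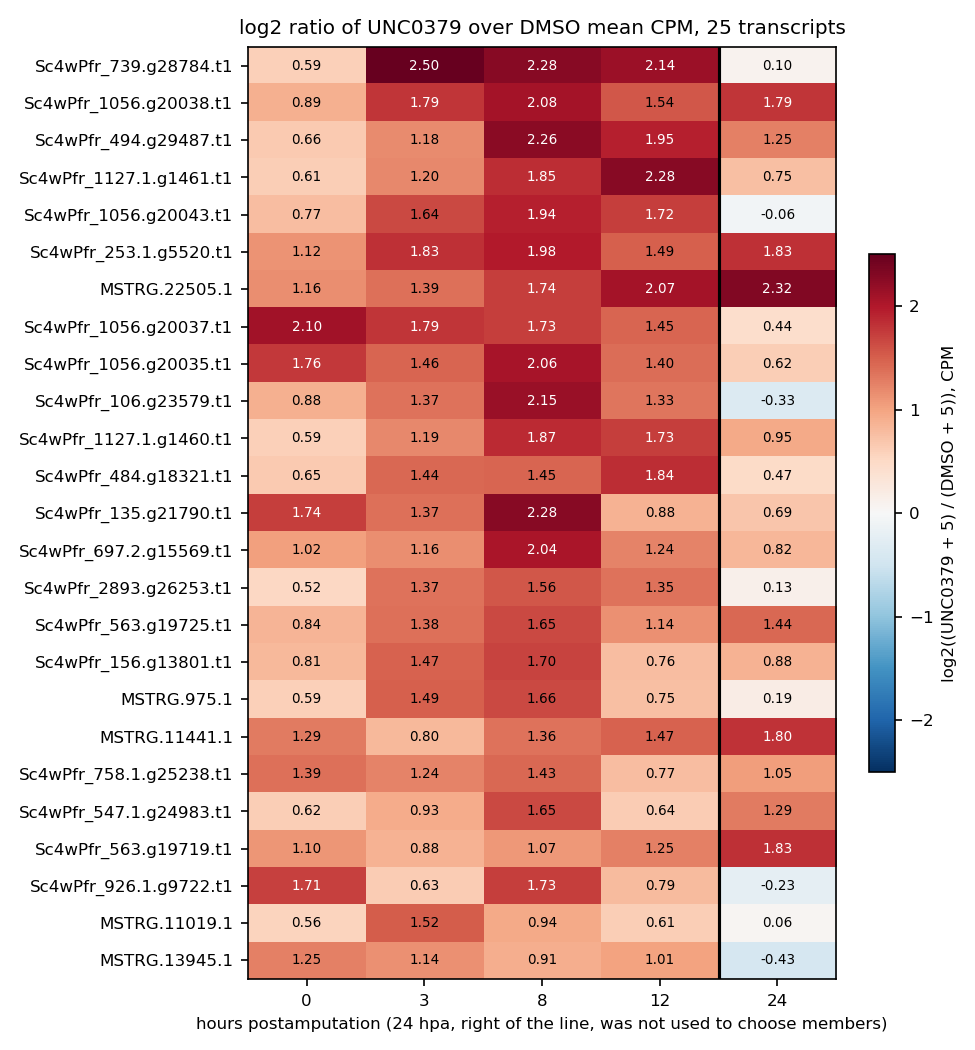
The log2 ratio of UNC0379 over DMSO group mean CPM (5 CPM added, 3 libraries a group) is shown as colour and number for the 25 transcripts, down the page by their mean ratio over 3, 8 and 12 hpa, at 5 times after amputation. Ratios at 0 to 12 hpa, left of the line, chose the transcripts, and the 24 hpa ratios ran from -0.43 to 2.32.

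Summed over the 25 members, the tags came to a median of 2140 CPM (1908 to 2176) under UNC0379 and 1110.4 CPM (893 to 1228) in DMSO at 0 hpa. By 8 hpa the sum reached 5070.3 CPM (4801 to 5197) under UNC0379, against 1449 CPM (1296 to 1600) in DMSO. At 24 hpa it was 3937 CPM (3624 to 4353) under UNC0379 and 1955 CPM (1878 to 2382) in DMSO. The sum in DMSO was thus highest at 24 hpa. The rule favoured low DMSO means at the earlier times and did not use 24 hpa, so this can come from the choice alone. Without the 3 members that had the most counts, the 24 hpa sums were 1224 CPM (933 to 1392) under UNC0379 and 588 CPM (584 to 649) in DMSO, and here the DMSO sum at 24 hpa was no higher than its 669 CPM at 3 hpa.

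At 24 hpa, 9 of the 25 members (36%) were called higher under UNC0379 by edgeR at an adjusted p under 0.05, where 2.08% of the 5046 tested transcripts were called higher. 0 members were called lower, also at an unadjusted p under 0.05 and by DESeq2 and limma-voom, while 5.31% of all tested were (7.39% in either direction). A further 5 members were higher at an unadjusted p under 0.05 only. The median fitted log2 fold change was 0.97 over the members (quartiles 0.50 and 1.76), against -0.02 over all tested and 0.03 over those that reached 30 CPM under UNC0379. The fitted change was above 0 in 23 members. Without the 3 libraries named above (UNC0379 0 hpa replicate 3 and both 24 hpa replicates 3), 10 members were called higher. In a fit of the 6 libraries of 24 hpa alone, without the spread of the other 8 groups, 2 members stayed called, MSTRG.11441.1 and MSTRG.22505.1, of 4 transcripts called higher in all. In simulated counts the test found 21 of 100 changes of 2-fold and 73 of 100 of 4-fold. Apart from the set changes, the simulation gave all groups the same mean and spread for each transcript. The real UNC0379 24 hpa libraries were less alike than those of the other groups, so these rates may not hold for this comparison. A member without a call is not shown to be unchanged.

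**Figure D2:**
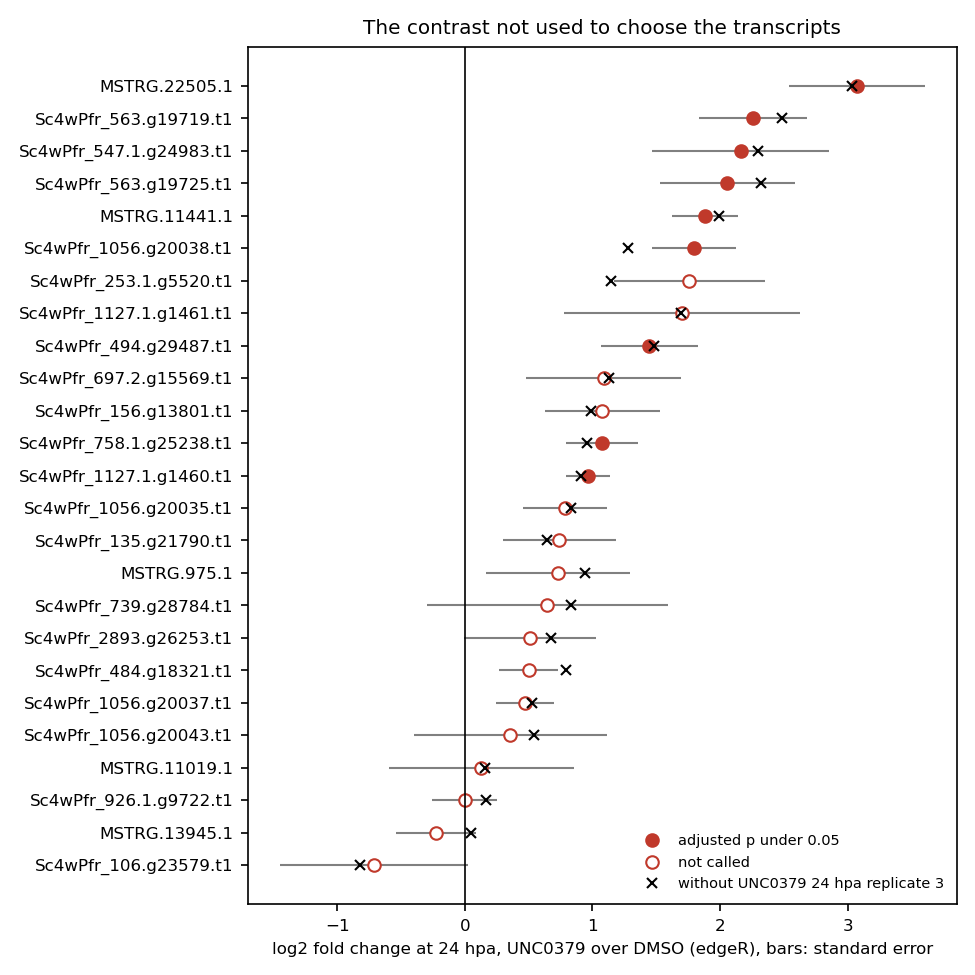
The fitted log2 fold change at 24 hpa (edgeR, UNC0379 over DMSO) is given on the x axis with its standard error for each of the 25 transcripts; filled circles passed an adjusted p of 0.05, open circles did not, and crosses are the values without the shallowest library, UNC0379 24 hpa replicate 3. The 9 called transcripts run from 0.97 to 3.07, and 23 of 25 values lie above 0. Standard errors were worked back from the test and are not reliable for values near 0.

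Of the 7 members whose libraries were apart at all 5 times, the ones named by rule are described first. The smallest adjusted p at 24 hpa belonged to MSTRG.11441.1. Its levels were 88, 75.2 and 134 CPM under UNC0379 at 0 hpa, against 51.3, 23.3 and 37.9 CPM in DMSO. At 8 hpa MSTRG.11441.1 had 255, 341 and 269 CPM under UNC0379, against 125, 72.7 and 131 CPM in DMSO. By 24 hpa its levels were 364, 322 and 218 CPM under UNC0379, against 64.8, 83 and 101 CPM in DMSO. The groups did not overlap at any of the 5 times, and the UNC0379 level held from 8 hpa on. The fitted change of MSTRG.11441.1 at 24 hpa was 1.88 on the log2 scale (standard error 0.26, adjusted p = 1.85e-06 from edgeR).

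The widest difference at 24 hpa was that of MSTRG.22505.1, a transcript with few tags in DMSO. All 3 DMSO libraries had 0 counts at 0 hpa, against 4.0, 9.8 and 4.63 CPM under UNC0379. The pooled UNC0379 level of 6.25 CPM was 4.05 times the 1.54 CPM that 3 counts over the 3 DMSO libraries would give. The 11 pooled UNC0379 counts were taken as exact. The rule used the 0 hpa contrast and favoured low DMSO values in it, so this ratio is a description only. At 8 hpa MSTRG.22505.1 had 27.2, 35.9 and 17.6 CPM under UNC0379, against 1.93, 8.08 and 3.7 CPM in DMSO. Under UNC0379 its group means were higher at each later time, at 6.14, 12.2, 26.9, 40.6 and 47.0 CPM over the 5 times. At 24 hpa MSTRG.22505.1 had 41.2, 52.1 and 47.7 CPM under UNC0379, against 2.49, 8.98 and 4.8 CPM in DMSO. This is 3.07 on the log2 scale (standard error 0.53, adjusted p = 0.000126 from edgeR). MSTRG.22505.1 was called in each of the 8 other settings that tested it and MSTRG.11441.1 in each of 10, and both were called whichever library was left out.

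Sc4wPfr_1127.1.g1460.t1 had more counts than any other member, 10053 over the 30 libraries. At 0 hpa it had 500.0, 436 and 503 CPM under UNC0379, against 382, 256 and 314 CPM in DMSO. The level under UNC0379 at 8 hpa was 1386, 1238 and 1343 CPM, against 408, 307 and 361 CPM in DMSO. In DMSO the level differed little through 12 hpa, with group means of 318, 309, 359 and 309.6 CPM at 0, 3, 8 and 12 hpa. At 24 hpa Sc4wPfr_1127.1.g1460.t1 had 1053, 1014 and 1056 CPM under UNC0379, against 546, 435 and 630.3 CPM in DMSO. The UNC0379 level at 24 hpa was thus lower than at 8 hpa, and the DMSO mean was higher than at the earlier times. The rule used the means through 12 hpa and not those at 24 hpa, so a smaller ratio there can come from the choice alone. The fitted change at 24 hpa was 0.97 on the log2 scale (standard error 0.17, adjusted p = 0.000153 from edgeR), and the groups were apart at all 5 times. With no filter on low counts Sc4wPfr_1127.1.g1460.t1 was not called (0.82, adjusted p = 0.101 from edgeR).

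Sc4wPfr_484.g18321.t1, with 8504 counts, had higher group means under UNC0379 at each later time, at 478, 556, 676, 857 and 992 CPM over the 5 times. In DMSO they were 303, 202, 244, 235 and 712 CPM, so that the high DMSO level came at 24 hpa alone. At 12 hpa Sc4wPfr_484.g18321.t1 had 830.3, 832 and 908 CPM under UNC0379, against 242, 199.6 and 264 CPM in DMSO. These groups lay far apart. At 24 hpa it had 1269, 1257 and 449.6 CPM under UNC0379, against 549, 738 and 849 CPM in DMSO. The shallowest library, replicate 3 under UNC0379, stood below every DMSO library, while the other 2 UNC0379 libraries stood above every one. With all libraries this was 0.50 on the log2 scale (standard error 0.23, adjusted p = 0.233 from edgeR), and without that library it was 0.79 with an adjusted p of 0.00113.

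**Figure D3:**
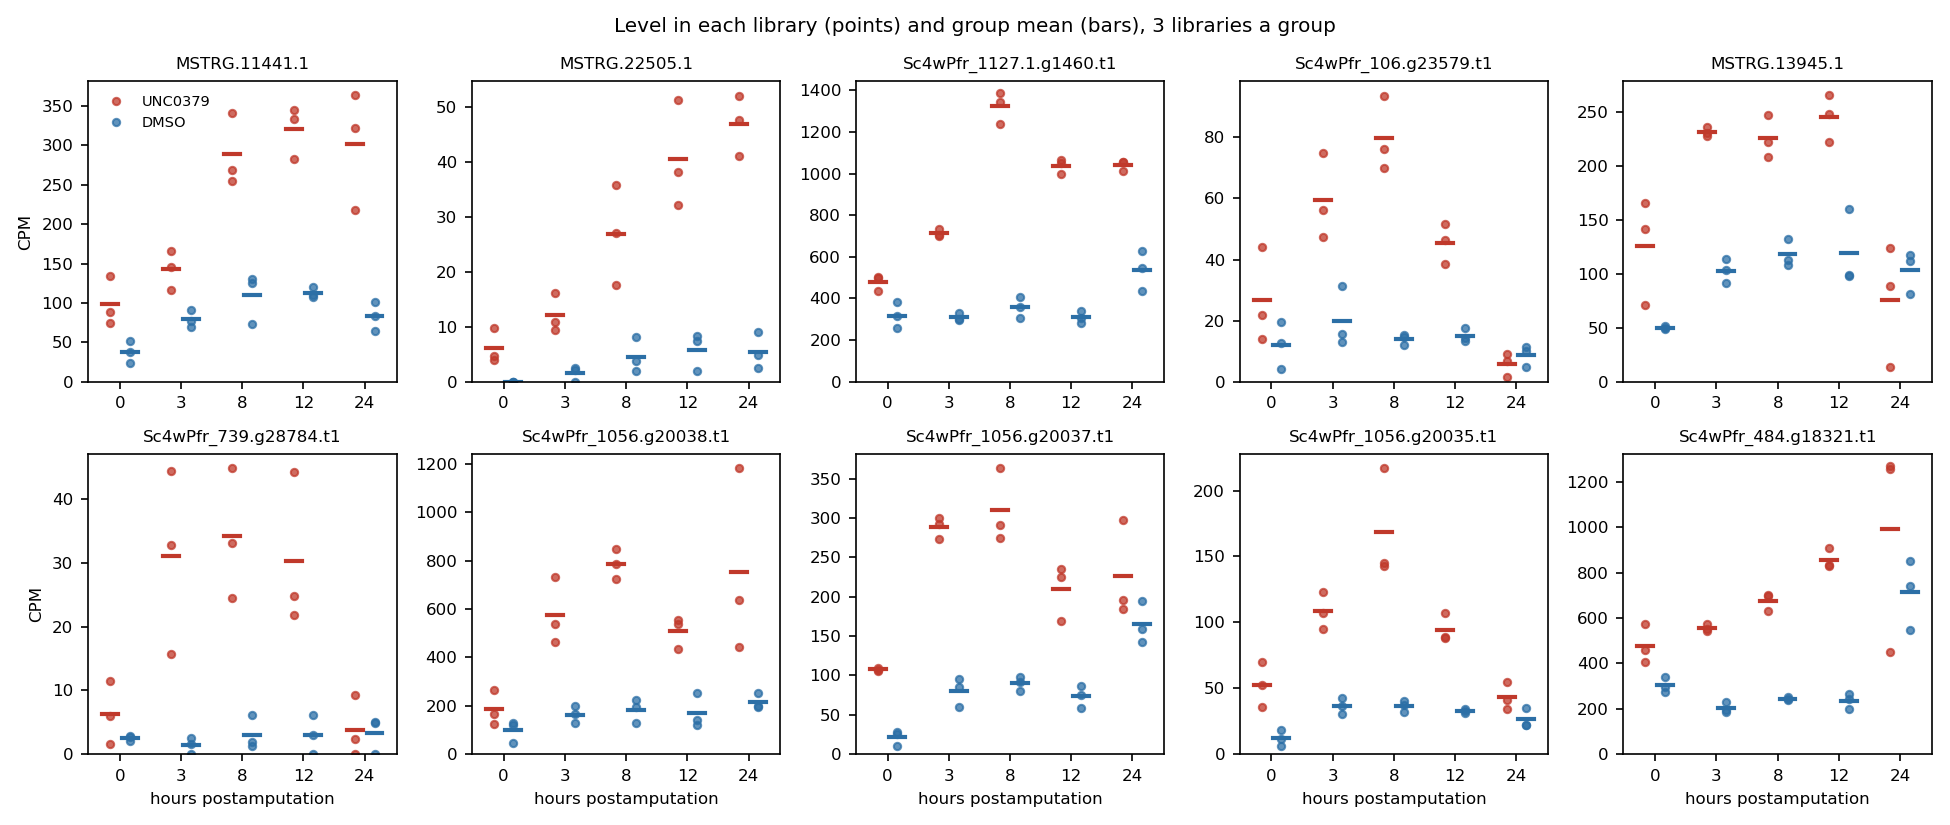
CPM in each library is plotted against hours postamputation for the 10 transcripts named by rule, with UNC0379 (red) left of DMSO (blue) at each time; points are libraries and bars are means of 3. MSTRG.11441.1 and MSTRG.22505.1 stay apart at 24 hpa, while Sc4wPfr_739.g28784.t1 and Sc4wPfr_106.g23579.t1 are under 10 CPM in every UNC0379 library there.

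The largest mean ratio over 3, 8 and 12 hpa, 2.30, was that of Sc4wPfr_739.g28784.t1, which was scarcely counted outside that window. At 0 hpa it had 6.0, 11.4 and 1.54 CPM under UNC0379, against 2.63, 2.12 and 2.8 CPM in DMSO, and the groups overlapped. The 3 hpa levels of Sc4wPfr_739.g28784.t1 were 15.8, 44.4 and 32.8 CPM under UNC0379, against 2.58, 0 and 1.57 CPM in DMSO. A similar gap was measured at 8 and 12 hpa. At 24 hpa it had 2.29, 9.19 and 0 CPM under UNC0379, against 4.99, 0 and 4.8 CPM in DMSO. Its fitted value of 0.65 had a standard error of 0.94 and an adjusted p of 0.798 from edgeR, and without UNC0379 24 hpa replicate 2 it was -0.90. At this depth a difference in Sc4wPfr_739.g28784.t1 at 24 hpa was not detectable.

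The lowest fitted values at 24 hpa were those of Sc4wPfr_106.g23579.t1 and MSTRG.13945.1. Sc4wPfr_106.g23579.t1 had 76.1, 70 and 93.7 CPM at 8 hpa under UNC0379, against 15.4, 12.1 and 14.8 CPM in DMSO. At 24 hpa it had 9.16, 1.53 and 6.81 CPM under UNC0379, against 9.97, 11.2 and 4.8 CPM in DMSO. Its high level under UNC0379 was thus gone by 24 hpa, and the groups overlapped. The fitted change was -0.71 on the log2 scale (standard error 0.74, adjusted p = 0.689 from edgeR), and 0.051 without UNC0379 24 hpa replicate 2. For MSTRG.13945.1 the 12 hpa levels were 266, 249 and 222 CPM under UNC0379, against 99.2, 97.9 and 159.9 CPM in DMSO. At 24 hpa MSTRG.13945.1 had 89.3, 124 and 13.6 CPM under UNC0379, against 117, 112 and 81.6 CPM in DMSO. The value of the shallowest library was the lowest. The fitted change was -0.22 on the log2 scale (standard error 0.31, adjusted p = 0.787 from edgeR), and 0.051 without that library.

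The other members called at 24 hpa were picked out after their values were seen, apart from Sc4wPfr_1056.g20038.t1, which is given with its neighbours below. Sc4wPfr_563.g19719.t1 had 73.3, 79.7 and 13.6 CPM at 24 hpa under UNC0379, against 2.49, 11.2 and 22.4 CPM in DMSO. Only the shallowest UNC0379 library came within the DMSO range. The fitted change was 2.26 on the log2 scale (standard error 0.42, adjusted p = 0.000307 from edgeR). Sc4wPfr_494.g29487.t1 had 57.3, 50.6 and 40.9 CPM at 24 hpa under UNC0379, against 12.5, 15.7 and 25.6 CPM in DMSO, with a fitted change of 1.45 on the log2 scale (standard error 0.38, adjusted p = 0.0131 from edgeR). Leaving out DMSO 24 hpa replicate 1 (adjusted p = 0.0748 from edgeR) or replicate 2 (0.0577) ended the call, as did testing with no filter on low counts (0.102) or after thinning all libraries to the smallest total (0.347). Sc4wPfr_758.1.g25238.t1 had 93.9, 70.5 and 102 CPM at 24 hpa under UNC0379, against 32.4, 42.6 and 46.4 CPM in DMSO, with a fitted change of 1.07 on the log2 scale (standard error 0.28, adjusted p = 0.0123 from edgeR). It lost its call without DMSO 24 hpa replicate 1 (adjusted p = 0.0736 from edgeR), with no filter (0.341) and after thinning (0.182).

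Sc4wPfr_547.1.g24983.t1 had its highest mean under UNC0379 at 0 hpa, as no other member did, and its highest mean in DMSO there as well. At that time it had 80, 49 and 69.4 CPM under UNC0379, against 61.8, 21.2 and 40.7 CPM in DMSO. By 24 hpa Sc4wPfr_547.1.g24983.t1 had come down to 20.6, 21.5 and 6.81 CPM under UNC0379, against 2.49, 2.24 and 6.4 CPM in DMSO. All UNC0379 libraries were above all DMSO libraries at 24 hpa, though the level of the shallowest rested on 1 count. The fitted change was 2.16 on the log2 scale (standard error 0.69, adjusted p = 0.0484 from edgeR), just inside the threshold, and the call was lost in 17 of the 30 fits that left out 1 library. It was also lost with limma-voom (adjusted p = 0.116), with edgeR on library sums (0.0585) and with no filter (0.134). Among the members not called, Sc4wPfr_253.1.g5520.t1 came closest. It had 64.1, 30.6 and 149.9 CPM at 24 hpa under UNC0379, against 17.5, 13.5 and 27.2 CPM in DMSO. The groups did not overlap, and the fitted change was 1.76 on the log2 scale (standard error 0.59, adjusted p = 0.0693 from edgeR). It passed without UNC0379 24 hpa replicate 2 (2.27, adjusted p = 0.0115 from edgeR) and without DMSO 3 hpa replicate 3 (adjusted p = 0.035). It also passed by DESeq2 (2.10, adjusted p = 0.0135) and by edgeR with no filter (1.59, 0.0181). Without the shallowest library its fitted change was 1.15, with no call.

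Apart from members that share a name with another, given further on, 7 members remain. None of them was called, and they had fitted changes from 0.00 for Sc4wPfr_926.1.g9722.t1 to 1.09 for Sc4wPfr_697.2.g15569.t1. Those given here were picked out after their values were seen. Sc4wPfr_926.1.g9722.t1 was strongly set apart at the start, with 64, 29.4 and 29.3 CPM at 0 hpa under UNC0379, against 5.26, 6.35 and 15.4 CPM in DMSO. At 8 hpa it had 117, 151 and 160.0 CPM under UNC0379, against 34.7, 46.4 and 37 CPM in DMSO. By 24 hpa the groups of Sc4wPfr_926.1.g9722.t1 overlapped, with 22.9, 32.2 and 6.81 CPM under UNC0379, against 32.4, 20.2 and 22.4 CPM in DMSO. Sc4wPfr_135.g21790.t1 had a similar start but stayed apart. Its 0 hpa levels were 50, 39.2 and 64.8 CPM under UNC0379, against 11.8, 16.9 and 7.01 CPM in DMSO. At 24 hpa Sc4wPfr_135.g21790.t1 had 38.9, 27.6 and 40.9 CPM under UNC0379, against 19.9, 20.2 and 20.8 CPM in DMSO. The groups did not overlap, yet the fitted change of 0.74 on the log2 scale (standard error 0.44, adjusted p = 0.407 from edgeR) was not called. The member with the least secure place in the set was MSTRG.11019.1, which met the rule in 15 of the 24 repeats that left out 1 library of 0 to 12 hpa. It had 34, 8.17 and 6.17 CPM at 0 hpa under UNC0379, against 3.94, 12.7 and 11.2 CPM in DMSO, and its high mean there rested on replicate 1. At 24 hpa MSTRG.11019.1 had 13.7, 6.13 and 6.81 CPM under UNC0379, against 7.48, 11.2 and 6.4 CPM in DMSO, and the groups overlapped.

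Several members shared the leading part of their identifier, the text before the gene number. Of the 20 members named Sc4wPfr, 8 shared it with another member, under 3 names. Among the transcripts higher only after the cut, which met the level and the later ratio limits with a 0 hpa ratio under 0.5, 8 of 34 shared a name among themselves. The lists differ in size, and how often tested Sc4wPfr transcripts in general share a name was not tested. Whether the leading name is a stretch of the genome, and whether the transcripts lie side by side on it, was not checked, as no annotation of these identifiers was used here. The transcripts named below for their shared name were picked out after their values were seen, except those of the rule. Each of the 25 members was the only transcript of its gene model, as were 92.0% of the tested transcripts.

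Sc4wPfr_1056 held 4 members of 8 tested transcripts and 19 in all. Sc4wPfr_1056.g20037.t1 had the largest ratio of any member at 0 hpa, with 110.0, 106 and 106 CPM under UNC0379, against 25, 10.6 and 28 CPM in DMSO. At 8 hpa it had 364, 275 and 291 CPM under UNC0379, against 98.2, 80.8 and 91.2 CPM in DMSO. Its mean in DMSO was 166 CPM at 24 hpa, against 73.6 CPM at 12 hpa. At 24 hpa Sc4wPfr_1056.g20037.t1 had 298, 196 and 184 CPM under UNC0379, against 142, 159 and 195 CPM in DMSO. The groups overlapped, and the fitted change was 0.47 on the log2 scale (standard error 0.23, adjusted p = 0.261 from edgeR).

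Sc4wPfr_1056.g20038.t1 kept its difference. At 0 hpa it had 166, 126 and 265 CPM under UNC0379, against 130.1, 44.4 and 119 CPM in DMSO, an overlap of single libraries. The 8 hpa levels of Sc4wPfr_1056.g20038.t1 were 850.4, 725 and 785 CPM under UNC0379, against 223, 127 and 195 CPM in DMSO. Every UNC0379 library was more than 3 times as high as the highest in DMSO. At 24 hpa it had 639, 441 and 1185 CPM under UNC0379, against 199, 193 and 253 CPM in DMSO. Here the shallowest library was the highest of the 6. The fitted change was 1.80 on the log2 scale (standard error 0.33, adjusted p = 0.000261 from edgeR), and 1.28 without that library, still called with an adjusted p of 0.00621.

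Sc4wPfr_1056.g20035.t1 had 70, 52.3 and 35.5 CPM at 0 hpa under UNC0379, against 18.4, 6.35 and 11.2 CPM in DMSO. Its peak at 8 hpa was 217, 145 and 142 CPM under UNC0379, against 40.4, 32.3 and 37 CPM in DMSO. The libraries of the treatments did not overlap at either time. At 24 hpa Sc4wPfr_1056.g20035.t1 had 55, 41.4 and 34.1 CPM under UNC0379, against 34.9, 22.4 and 22.4 CPM in DMSO, with a fitted change of 0.79 on the log2 scale (standard error 0.33, adjusted p = 0.173 from edgeR). The last member of the name, Sc4wPfr_1056.g20043.t1, had 97.8, 70 and 74.2 CPM at 8 hpa under UNC0379, against 21.2, 16.2 and 14.8 CPM in DMSO. By 24 hpa it had 6.87, 9.19 and 0 CPM under UNC0379, against 7.48, 6.73 and 3.2 CPM in DMSO, a level too low to compare at this depth.

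Other tested transcripts of the name did not share the pattern. Sc4wPfr_1056.g20042.t1 had a mean ratio of 0.12 over 3 to 12 hpa and Sc4wPfr_1056.g20044.t1 one of -0.38. Sc4wPfr_1056.g20045.t1, in turn, had a mean ratio of 1.76 and stood just outside the set only by its 0 hpa ratio of 0.47. Its 0 hpa levels were 18, 11.4 and 24.7 CPM under UNC0379, against 25, 0 and 9.81 CPM in DMSO. At 24 hpa Sc4wPfr_1056.g20045.t1 had 45.8, 19.9 and 102 CPM under UNC0379, against 12.5, 15.7 and 19.2 CPM in DMSO. Reads of overlapping transcripts may be recorded as ambiguous, and those of near-identical ones as aligned to several places. The part of such reads in the shared pattern under Sc4wPfr_1056 was not tested.

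**Figure D4:**
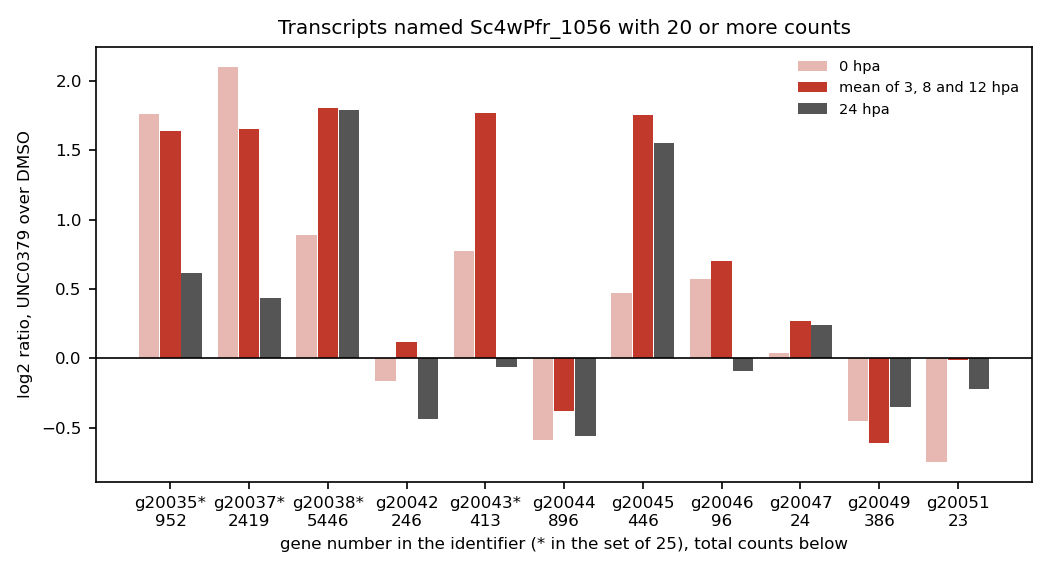
The log2 ratio of UNC0379 over DMSO group means (5 CPM added) is drawn as bars at 0 hpa, as the mean of 3, 8 and 12 hpa, and at 24 hpa, for the 11 transcripts named Sc4wPfr_1056 with at least 20 counts, in order of gene number. The 4 members, marked with an asterisk, and g20045 have mean ratios of 1.64 to 1.80. The mean ratio of g20046, which was not tested, is 0.70. Those of g20044 and g20049 are below 0, as is that of g20051, at -0.01.

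Under the name Sc4wPfr_563, Sc4wPfr_563.g19719.t1 and Sc4wPfr_563.g19725.t1 were both called at 24 hpa. Sc4wPfr_563.g19725.t1 had 68.7, 39.8 and 0 CPM there under UNC0379, against 15, 4.49 and 11.2 CPM in DMSO. The shallowest library had 0 counts of it, below every DMSO library, and the other 2 UNC0379 libraries were above them. The fitted change of 2.06 on the log2 scale (standard error 0.53, adjusted p = 0.0101 from edgeR) lost its call when UNC0379 24 hpa replicate 1 was left out (adjusted p = 0.130) and when DMSO 24 hpa replicate 2 was (0.0772). It was also lost with limma-voom (adjusted p = 0.135) and after thinning (0.0654). The third tested transcript of the name, Sc4wPfr_563.g19716.t1, had a mean ratio of -0.25 over 3 to 12 hpa. Under Sc4wPfr_1127.1, the strongly counted Sc4wPfr_1127.1.g1460.t1 was joined by Sc4wPfr_1127.1.g1461.t1, with 128 counts in all. Its 0 hpa libraries had 1, 3 and 2 counts under UNC0379, against 0, 0 and 1 in DMSO. They were apart only because 1 count was worth 2.00 CPM in the lowest UNC0379 library and 1.40 CPM in the highest DMSO library. At 12 hpa it had 22.2, 19.1 and 16.7 CPM under UNC0379, against 0 counts in all 3 DMSO libraries. The pooled level under UNC0379 was 10.7 times that of 3 counts over the 3 DMSO libraries, with its 34 pooled counts taken as exact. The rule used this contrast and favoured low DMSO values in it, so the ratio is a description only. The other 2 tested transcripts of that name had mean ratios of 0.03 and 0.17.

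The members were set beside the 50 transcripts that were higher only after the cut, of which 49 could be tested. At 24 hpa 9 of 25 members (36%) and 14 of 49 of those transcripts (28.6%) were called higher by edgeR. Their median log2 fold changes were 0.97 and 0.90, and 0 of the members and 1 of the other transcripts were called lower. The difference between the sets was not tested, and their quartiles overlapped widely, with 0.50 to 1.76 in the members and 0.47 to 1.24 in the others. Both sets were chosen on their later ratios, and both used the same 24 hpa libraries. Without UNC0379 24 hpa replicate 3 the members called higher numbered 10 and the others 16.

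**Figure D5:**
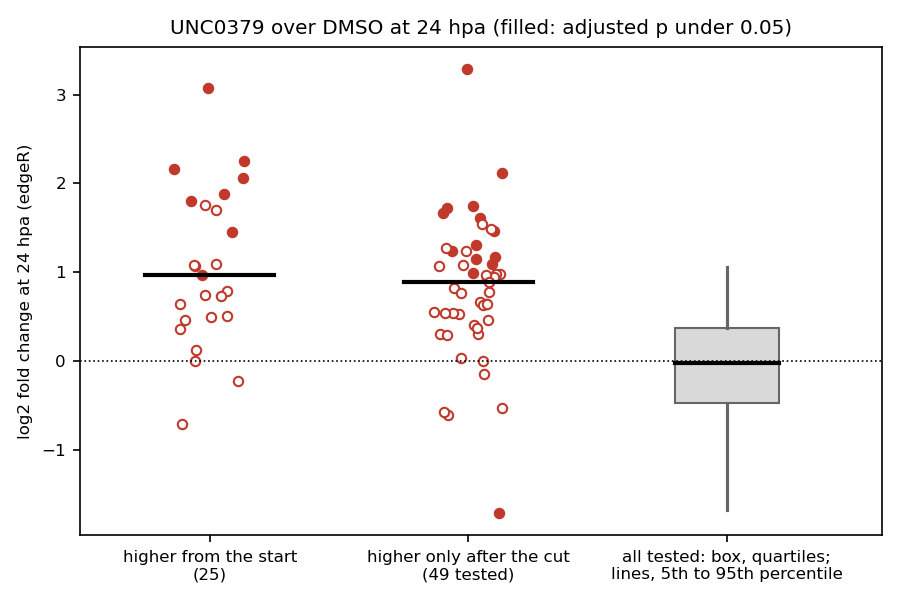
Fitted log2 fold changes at 24 hpa (edgeR) are shown for the 25 transcripts higher from the start, the 49 tested transcripts higher only after the cut and, as a box with quartiles and lines to the 5th and 95th percentiles, all 5046 tested. Each point is a transcript, filled where its adjusted p was under 0.05, and the black lines are medians of 0.97, 0.90 and -0.02.

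The edges of the set were close to transcripts that missed it. The lowest mean ratio inside was 1.02 and the highest outside 0.98. At 0 hpa the lowest ratio inside was 0.52 and the highest outside 0.47, and the highest UNC0379 mean was 31.9 CPM for the last member inside and 27.5 CPM for the first outside. When single libraries of 0 to 12 hpa were left out, the rule found 21 to 29 transcripts and kept 20 to 25 of the 25 members, of which 12 were kept every time. Without UNC0379 0 hpa replicate 3 it found 28 and kept 24. Without DMSO 0 hpa replicate 2, the library that was lowest in 17 members, it found 23 and kept 20.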

How the data were processed

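The 30 libraries of 3′ mRNA come from tips at 5 times and 2 treatments, 3 for each combination, and groups and replicate numbers come from the sample labels. The deposited values are raw counts of reads per transcript, 1 file per library, with no pooling. Trimmomatic, HISAT2 and HTSeq are listed in the submitters' processing notes. Their versions, the strand setting, the genome build and the annotation are not given in the sources used. The 5 summary lines of each file, 70.3% to 99.3% of the reads, stayed out of library sizes and tests. No 2 files were identical, and replicate pairs differed by more than sampling noise (chi-square per degree of freedom 1.80 to 34.5).

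CPM was computed from each library's assigned counts. For the test, filterByExpr on the 10 groups left 5046 transcripts, all 25 members among them. These were normalized by TMM and fitted with edgeR 4.0.16 (quasi-likelihood, robust, 1 coefficient per group, all 30 libraries, R 4.3.3), with Benjamini-Hochberg adjustment over the 5046 and a threshold of 0.05. An exact test of 1 transcript, 3 libraries against 3, could reach no p under 0.1. The edgeR standard errors given were worked back from the fitted change and the F value of its test. They are not reliable where the fitted change is near 0. For MSTRG.16466.1, a transcript higher only after the cut, the fitted change and the standard error were both 0. The fit was tested on simulated data with independent libraries and 1 spread per transcript shared by all groups, where 6 false calls were made at 24 hpa. The greater spread among the real UNC0379 24 hpa libraries was not simulated. Members and comparison lists were chosen with earlier results of these data known. The naming rule took the 3 members with the smallest adjusted p at 24 hpa among those called higher, up to 3 among those called lower, the 2 lowest fitted changes there, the 2 largest mean ratios, the 2 largest 0 hpa ratios, the 2 highest mean levels under UNC0379, and members that share a gene model. It named 10. Alternatives were DESeq2 1.42.0, limma-voom (limma 3.58.1), DESeq2 size factors, no TMM factor, no filter, at least 10 counts in 15 libraries, the replicate number as a block, the 24 hpa libraries alone, 3 libraries left out together, thinning to the smallest total, and each library left out in turn. For the rule they were TMM-normalized CPM and 1 CPM in place of 5.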

Additional observations from a re-analysis of the deposited data

How the results depend on the processing

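The median fitted change of the members at 24 hpa stayed above 0 in every setting, and 0 members were called lower in any. Members called higher numbered 6 to 10 when single libraries were left out, 2 in the fit of the 24 hpa libraries alone and 4 after thinning, which had fewer transcripts to test. Over all transcripts, those called higher numbered 158 by DESeq2, 52 by limma-voom, 46 without a filter, 4 with the 24 hpa libraries alone and 51 to 212 with single libraries left out, against 105. Those called lower numbered 50 with the 24 hpa libraries alone, 135 after thinning and 213 to 302 with single libraries left out, against 268. Without UNC0379 24 hpa replicate 2, where 212 were called higher, the median over all tested was -0.15. Of the 9 called members, 5 stayed called whichever library was left out, and 2 stayed called in every other setting that tested them. Directions turned for 8 members with no call. They include Sc4wPfr_106.g23579.t1 (-1.58 to 0.051 over left-out libraries, 0.093 after thinning), Sc4wPfr_739.g28784.t1 (-0.90 to 1.14), Sc4wPfr_1056.g20043.t1 (-0.11 to 0.57, and -1.23 after thinning) and MSTRG.13945.1 (-0.68 to 0.051). Over left-out libraries the sign also turned for MSTRG.975.1 (-0.28 to 1.06), Sc4wPfr_2893.g26253.t1 (-0.37 to 0.81), MSTRG.11019.1 (-0.34 to 0.52) and Sc4wPfr_926.1.g9722.t1 (-0.42 to 0.20). The cause of these shifts was not tested. The rule found 23 transcripts with TMM-normalized CPM, 20 of them members, and 36 with a pseudocount of 1 CPM, all 25 members among them. Whether replicate numbers pair the libraries was not settled. Same-numbered libraries of the treatments correlated at 0.03 to 0.35 at 24 hpa, and at -0.02 to 0.35 over all times. Of these 15 pairs, 5 passed 0.1. Libraries of other numbers correlated at -0.46 to 0.37. With the replicate number as a block, 141 transcripts were called higher and 288 lower, and 9 members were called higher with a median of 0.97. Most members had few counts (median 603 over 30 libraries), which limits what 24 hpa can show.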
